A study of Mus musculus with 2 samples.

Results

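C1q macrophages were a rare population among splenic CD11c+ cells, and 119 of the 19339 cells measured by scRNA-seq belonged to it. A cell was taken as a C1q macrophage when it held at least 3 UMIs of C1qa, C1qb and C1qc together, at least 2 UMIs of Hmox1, Slc40a1 and Vcam1 together, and fewer than 5 UMIs of Negr1. A UMI, or unique molecular identifier, counts 1 captured mRNA molecule. These 7 genes chose the cells, so their levels are given as a description. By this rule 70 of 7814 WT cells and 49 of 11525 cells of H2-Aa cit/cit mice (cit) were chosen.

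H2-Aa encodes the α chain of an MHC-II molecule, and the citation (cit) allele is a germline splice mutation of this gene, present in every cell of the mouse. There was 1 library per genotype, each from the pooled spleens of 3 naive female mice that were 4 months old, WT being H2-Aa +/+. Cells were enriched with a CD11c positive selection kit, sorted as live CD45.2+ CD11c+ cells and labelled as primary dendritic cells (DC). With 1 library per genotype no comparison has a replicate check, no p value can be given, and genotype cannot be told apart from pool or library. All intervals below are 95% intervals that cover counting error alone.

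Red pulp macrophages of the spleen clear aged red blood cells. They break down hemoglobin, open the heme ring with heme oxygenase, store the freed iron in ferritin and export it through ferroportin. C1qa, C1qb and C1qc encode the chains of C1q, the recognition protein of the classical complement pathway, which also tags dying cells for uptake and is made mainly by macrophages. In the mouse the C1q genes lie side by side on the minus strand of chromosome 4 (GRCm38, C1qb at chr4:136880129-136886187, C1qc at chr4:136889804-136893065 and C1qa at chr4:136895917-136898803). Hmox1, the inducible heme oxygenase, lies at chr8:75093621-75100589. Slc40a1, the gene of ferroportin, lies at chr1:45908068-45926523. Vcam1, an adhesion molecule that red pulp macrophages carry, lies at chr3:116109949-116129688.

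Iron also controls several of these mRNAs through the iron-responsive element, a hairpin that iron regulatory proteins bind when iron is scarce. Its loop reads CAGTG and a C stands 5 bases before the loop. The element was searched as CNNNNNCAGTGN on the sense strand of annotated 5′ UTRs, and the exonic sites of ferritin heavy chain (Fth1), ferritin light chain (Ftl1), ferroportin (Slc40a1) and the erythroid heme synthesis enzyme Alas2 are shown because these genes carry the values described below. The loop is in capitals and sequences and positions are from GENCODE M21 (GRCm38).
Fth1 (chr19:9982730-9982759, plus strand): gtttcctgcttcaaCAGTGcttgaacggaa
Ftl1 (chr7:45459780-45459809, minus strand): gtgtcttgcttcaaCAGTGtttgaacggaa
Slc40a1 (chr1:45925466-45925495, minus strand): tccaacttcagctaCAGTGttagctaagtt
Alas2 (chrX:150547456-150547485, plus strand): ctttggttcgtcctCAGTGcagggcaacag
A match to these letters is a description and not a test of the element, and 12.4% of 20728 coding genes had one in an annotated 5′ UTR. UMI counts measure mRNA amount and not the binding or translation of these mRNAs.

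C1q macrophages made up 0.896% of WT cells (exact binomial interval 0.699 to 1.13) and 0.425% of cit cells (0.315 to 0.562). The difference, cit minus WT, was -0.471 percentage points (Newcombe interval -0.727 to -0.240) and the ratio was 0.475 (0.323 to 0.694). These are shares of cells that passed a CD11c gate and not of all splenic macrophages. Genes of the rule were also found less often in the other cells of cit. A C1q UMI was held by 3.46% of other WT and 1.54% of other cit cells. A UMI of Hmox1, Slc40a1 or Vcam1 was held by 12.6% and 5.53%. The part of this in the difference in share was not tested. The libraries shared 31 cell barcodes, and a single WT C1q macrophage and no cit one carried such a barcode.

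Most C1q macrophages were shallow. The UMIs per C1q macrophage ran from 500 over a median of 1181.5 to 16405 in WT, and from 519 over a median of 1083 to 14809 in cit. Other cells had medians of 5522 and 5650.5 UMIs. The depth fell into a low and a high range in both libraries, and 43 of 70 (61.4%) WT and 32 of 49 (65.3%) cit C1q macrophages had fewer than 2000 UMIs. Of all cells under 2000 UMIs, C1q macrophages made up 3.86% in WT (2.80 to 5.16) and 1.83% in cit (1.25 to 2.57). At 2000 UMIs or more they made up 0.403% (0.266 to 0.586) and 0.174% (0.101 to 0.278), so the share was lower in cit in both ranges. The shallow C1q macrophages held a median of 472 genes in WT and 475 in cit, and a median of 3.48% and 3.23% mitochondrial UMIs. The deep ones held 2499 and 2586 genes and 1.57% and 1.35% mitochondrial UMIs. Ribosomal protein mRNA took a median of 21.7% and 20.4% of the UMIs of shallow C1q macrophages, against 7.94% and 6.43% in other cells under 2000 UMIs. All cells in the files had at least 500 UMIs, so C1q macrophages below that depth were not analysed here.

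**Figure D1:**
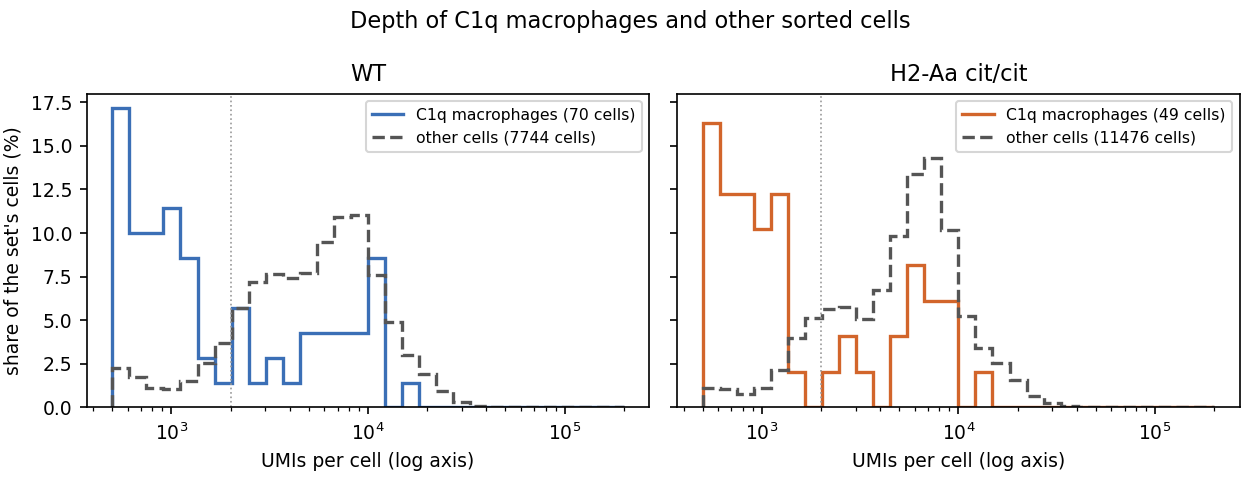
UMIs per cell (log axis) against the share of cells in percent, for C1q macrophages (solid) and other cells (dashed) of each library, with a dotted line at 2000 UMIs. C1q macrophages pile up between 500 UMIs and the dotted line, where 43 of 70 WT and 32 of 49 cit cells lie, while other cells have their medians at 5522 and 5650.5 UMIs.

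The cells just inside and outside the rule did not form a gap. With the Hmox1, Slc40a1 and Vcam1 limit met, 13 WT and 9 cit cells had exactly 3 C1q UMIs and were taken, and 20 and 12 had exactly 2 and were not. With the C1q limit met, 17 and 9 cells had exactly 2 UMIs of Hmox1, Slc40a1 and Vcam1 and were taken, while 15 and 7 had exactly 1 and 33 and 23 had 0. Among the cells left out with 0 were 14 WT and 8 cit cells with 12 or more C1q UMIs, with a median depth of 5695 and 6653.5 UMIs. C1q mRNA without a UMI of Hmox1, Slc40a1 or Vcam1 was thus found in deep cells of both libraries. The Negr1 limit removed 2 WT cells and no cit cell.

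The genes of the rule were spread over most of the chosen cells. The C1q sum ran from 3 over a median of 5 to 41 UMIs in WT and from 3 over a median of 6 to 74 UMIs in cit. C1qa, C1qb and C1qc took 36.1%, 32.7% and 31.2% of these UMIs in WT, and 40.0%, 33.6% and 26.4% in cit. The median of Hmox1 was 2.5 UMIs in WT (up to 23) and 2 in cit (up to 10), that of Vcam1 1.5 (up to 12) and 1 (up to 8), and that of Slc40a1 1 in both (up to 8 and 7). Hmox1 was found in 56 of 70 WT and 39 of 49 cit C1q macrophages, Vcam1 in 52 and 37, and Slc40a1 in 39 and 33.

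The red pulp macrophage label was checked with 13 genes that the rule did not use. Levels are given in CPM, the UMIs of a gene per 1000000 UMIs, summed over the cells of a set. The kit captures the 3′ end of each mRNA, so CPM is not scaled by transcript length, and levels are compared for the same gene between sets. Together the 13 genes gave 581 UMIs in WT C1q macrophages (2551 CPM against 311 CPM in other cells) and 340 UMIs in cit (2483 against 322 CPM). Of the 12 genes with 20 or more UMIs over both libraries, 10 in WT and 11 in cit were at least 2-fold higher in C1q macrophages than in other cells after 5 CPM was added to both, beside 5.63% of all 3394 such genes in WT and 5.63% in cit. The cells were chosen by their mRNA in the same contrast, so this is a description of the population and not evidence for it. The median log2 ratio was 3.50 in WT and 3.95 in cit over all 13 genes, and 3.63 and 4.05 over the 12, beside -0.06 and -0.02 over all 3394 genes. Per cell the list gave from 0 over a median of 6 to 34 UMIs in WT and from 0 over a median of 5 to 31 UMIs in cit, and 1 cell of each library held none. In 139 WT and 140 cit cells outside the population with 3 or more UMIs of Ace and Fabp4 together it gave a median of 9 UMIs. These cells held 1397 and 1415 list UMIs among 1006401 and 1270898 in all. Against them the median log2 ratio over the 13 genes was 3.06 in WT and 2.86 in cit.

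Spic, the transcription factor that red pulp macrophages need to develop, stood at 219 CPM (163 to 289) in WT C1q macrophages and 197 CPM (130 to 287) in cit ones. In other cells it stood at 14.9 and 8.05 CPM. At this depth most C1q macrophages held no UMI of Spic, which was found in 28 of 70 and 17 of 49 cells.

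Fcna (ficolin A), a lectin of the complement system, stood at 184 and 153 CPM against 0.374 and 0.248 CPM in other cells, where all 7744 WT and 11476 cit cells together gave 19 and 18 UMIs beside the 42 and 21 UMIs of the C1q macrophages. The mannose receptor Mrc1 stood at 162 CPM in WT and 226 CPM in cit, against 1.61 and 1.89 CPM. Cd5l, a secreted scavenger protein of tissue macrophages, stood at 79.0 and 139 CPM, against 1.22 and 0.538 CPM. These genes were low in other cells of both libraries, while the next 3 had a higher level there. Csf1r, the receptor for the macrophage growth factor CSF1, stood at 470 and 394 CPM, against 46.1 and 53.3 CPM. Hpgd, an enzyme that inactivates prostaglandins, was at 342 and 314 CPM, against 36.2 and 41.8 CPM. Itgad, the αD integrin chain, was at 114 and 175 CPM, against 22.6 and 20.7 CPM.

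Some genes of the list set the population apart little or not at all. Adgre1, which encodes the F4/80 antigen used to stain red pulp macrophages, stood at 180 and 183 CPM in C1q macrophages against 138 and 154 CPM in other cells. Treml4 stood at 57.1 and 80.3 CPM against 40.2 and 35.2 CPM, and counted among the genes at least 2-fold higher in cit but not in WT. Cd163, the receptor for hemoglobin bound to haptoglobin, gave 2 UMIs in WT and 0 in cit C1q macrophages. Treml4, Csf1r and Hpgd were also high in 139 WT and 140 cit cells outside the population with 3 or more UMIs of Ace and Fabp4 together, genes of patrolling monocytes, with Treml4 at 234 and 188, Csf1r at 367 and 294 and Hpgd at 357 and 281 CPM. Slc40a1, Mertk and Fcna had no UMI in those cells, and Spic was at 21.9 and 22.8 CPM there.

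**Figure D2:**
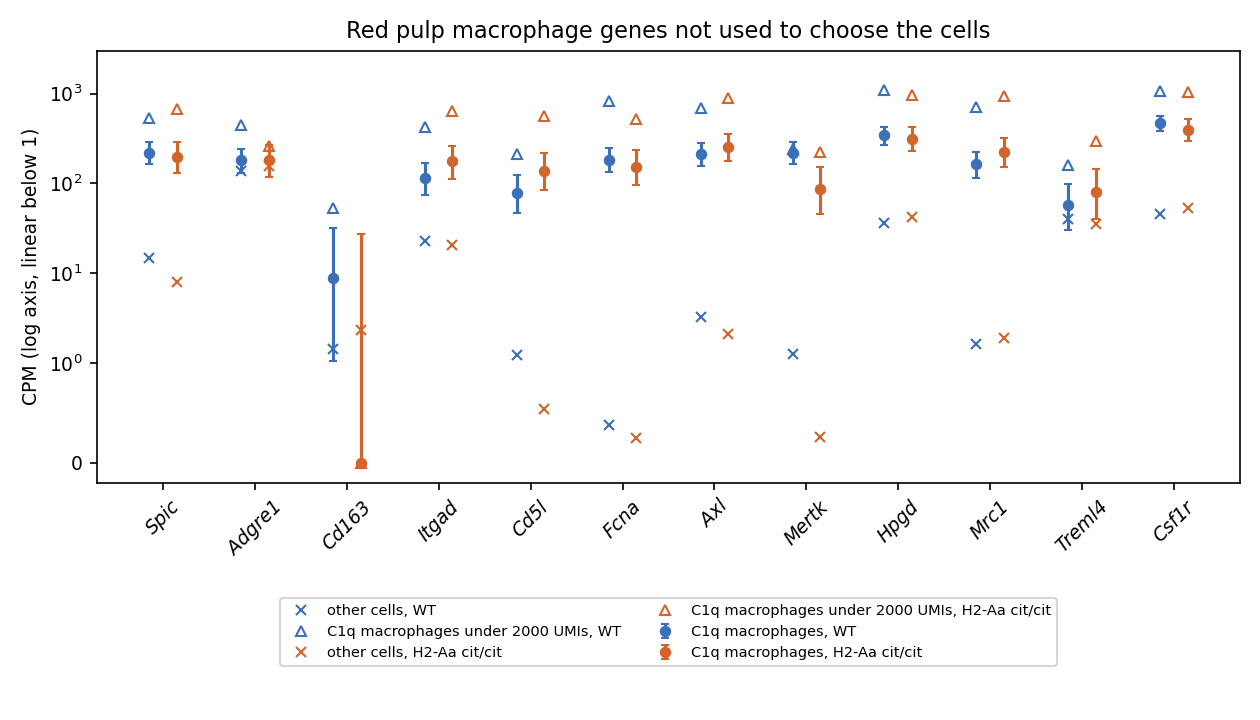
CPM (log axis, linear below 1) of 12 of the 13 red pulp macrophage genes in C1q macrophages (filled circles, bars are 95% Poisson intervals), C1q macrophages under 2000 UMIs (triangles) and other cells (crosses), WT in blue and cit in orange. All genes but Adgre1, Cd163 and Treml4 lie far above the crosses, as for Fcna at 184 and 153 CPM against 0.374 and 0.248 CPM.

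The red pulp genes took a larger part of the UMIs in the shallow cells. In C1q macrophages under 2000 UMIs the 13 genes took 7044 CPM in WT and 7595 CPM in cit, and in those of 2000 UMIs or more 1662 and 1243 CPM. The count per cell was of the same order in both depth ranges, with a median of 5 UMIs in shallow cells of either library and of 10 and 6 UMIs in deep cells of WT and cit. Other cells under 2000 UMIs held 466 and 458 CPM of these genes. Axl, a receptor for dying cells, stood in the same order, with 691 and 898 CPM in shallow C1q macrophages, 116 and 99.8 CPM in deep ones and 10.9 and 3.81 CPM in other shallow cells. Each cell was also thinned to 1000 UMIs, which kept 41 WT and 26 cit C1q macrophages. At least 1 UMI of the list was then found in 82.9% (67.9 to 92.8) of WT and 80.8% (60.6 to 93.4) of cit C1q macrophages and in 25.3% and 27.0% of other cells. Without thinning the shares were 98.6% and 98.0% against 59.9% and 64.3%. Among the other cells, the Ace and Fabp4 cells described above came closer to the C1q macrophages. After thinning, 65.9% (57.4 to 73.8) of them in WT and 69.8% (61.4 to 77.3) in cit held a UMI of the list. These intervals overlapped those of the C1q macrophages of the same library. Without thinning the Ace and Fabp4 cells stood at 93.5% in WT and 97.9% in cit.

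The deep cells held DC transcripts as well. Flt3, the receptor that drives DC development, or Zbtb46, a transcription factor of conventional DC, was found in 15 of 27 deep WT and 12 of 17 deep cit C1q macrophages, in 1 of 43 and 3 of 32 shallow ones and in 83.1% and 85.0% of other cells. The 7 conventional DC genes of the list summed to 227 UMIs in WT and 131 UMIs in cit, of which 219 and 124 came from deep cells. Dpp4 was the most abundant of them (86 and 52 UMIs), and all 7 were detected. Scrublet scores likely doublets, and the 6.25% of WT and 9.22% of cit cells with the highest scores were marked. Among them were 4 of 70 WT and 2 of 49 cit C1q macrophages, none of them under 2000 UMIs. Whether a deep cell was a macrophage that expressed DC genes, a doublet of a macrophage and a DC, or a DC with engulfed material was not tested.

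**Figure D3:**
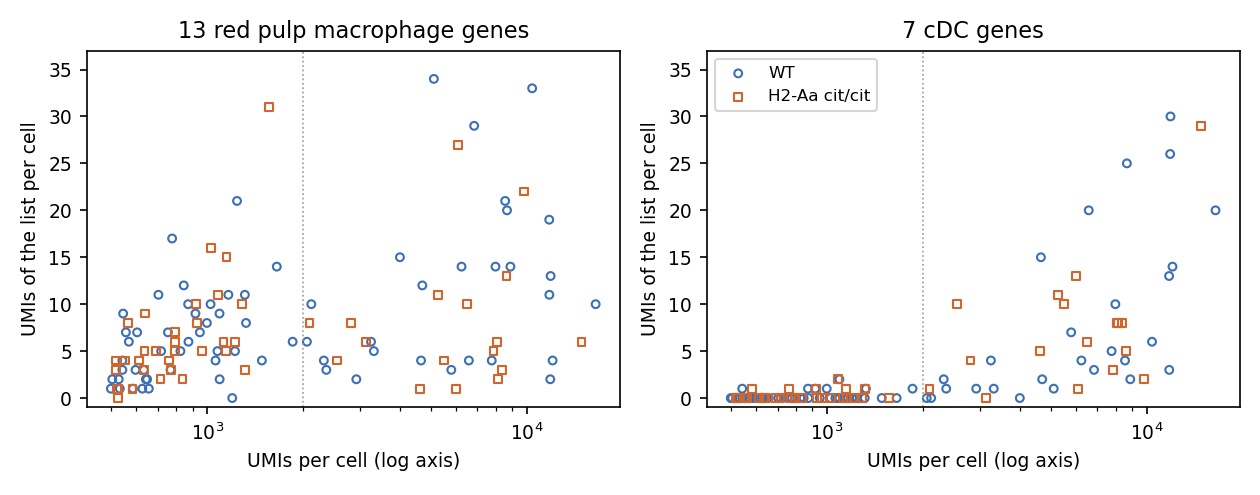
UMIs per cell (x, log axis) against UMIs of 13 red pulp macrophage genes (left) and of 7 conventional DC genes (right) in each C1q macrophage, circles for WT and squares for cit, with a dotted line at 2000 UMIs. Red pulp genes are present on both sides of the line, while 219 of 227 WT and 124 of 131 cit UMIs of the DC genes lie to its right.

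Most markers of other cell types were near 0. T cell, NK cell, plasma cell, neutrophil, platelet and endothelial or stromal lists gave between 0 and 3 UMIs each in C1q macrophages of either library, and the 4 B cell genes gave 16 UMIs in WT (14 of them Cd79b) and 3 in cit. The 7 monocyte genes were the exception, with 166 UMIs in WT and 96 in cit (729 and 701 CPM, against 680 and 1057 CPM in other cells). Of these UMIs 136 and 75 were Plac8, which other cells of the sort also held at 516 and 900 CPM, and Ly6c2 gave 3 and 0, Chil3 0 in both. Ccr2 gave 20 and 16 UMIs, of which 19 and 16 lay in deep cells. It stood at 87.8 and 117 CPM, above the 39.4 and 43.0 CPM of other cells. The part of monocyte transcripts in the results was not tested. The 4 genes of marginal zone and metallophilic macrophages summed to 39 and 9 UMIs (171 and 65.7 CPM, against 8.92 and 5.19 CPM in other cells), most of them Nr1h3. Marco, a scavenger receptor of marginal zone macrophages, gave 8 and 0 UMIs, Siglec1, the marker of metallophilic macrophages, 1 and 0 UMIs, and Cd209b 0 in both. Nr1h3, the oxysterol receptor that marginal zone macrophages depend on, gave 30 UMIs in WT (132 CPM) and 9 in cit (65.7 CPM), against 5.53 and 2.04 CPM in other cells.

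Free RNA from lysed cells enters every droplet, and its part was read from droplets that should not make a gene themselves. In 2 WT and 3 cit droplets with hemoglobin at 60% or more of their UMIs, a limit set after seeing the data, no UMI of C1q, of Hmox1, Slc40a1 and Vcam1 or of the red pulp list was found. In 30 WT and 21 cit cells with 10 or more UMIs of the NK cell list, the red pulp list gave 14 and 4 UMIs in all, C1q 12 (11 of them in a single cell) and 0, and the sum of Hmox1, Slc40a1 and Vcam1 1 and 6. H2-Aa, H2-Ab1, H2-Eb1 and Cd74 gave a median of 11 and 11.5 UMIs in shallow C1q macrophages, against 15.5 and 10 in the hemoglobin droplets and 12 and 10 in the NK-list cells, so the counts per droplet were alike. Per UMI, with hemoglobin left out, these genes took 14673 and 14375 CPM in shallow C1q macrophages, 27778 and 9034 CPM in the hemoglobin droplets and 2345 and 3336 CPM in the deeper NK-list cells. The part of free RNA in the MHC-II UMIs of shallow C1q macrophages was not tested. In deep C1q macrophages the median was 139 and 174 UMIs.

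Beyond the genes of the rule, the genes with the highest ratio of C1q macrophages to other cells, by the mean of both libraries, included Slpi, Fcna, Axl, Mrc1, Hba-a1, Lyz2, Apoe, Maf, Hbb-bs, Ctsd, Clec4n, Selenop, Spic and Prxl2b. A single WT cell, described below, held 1257 of the 1263 WT UMIs of Hba-a1 and 3096 of the 3124 of Hbb-bs. Without it hemoglobin in WT C1q macrophages stood at 250 CPM, against 260 CPM in other WT cells. Slpi, a secreted inhibitor of serine proteases, stood at 509 CPM in WT and 460 CPM in cit C1q macrophages, against 5.57 and 3.32 CPM in other cells. It was found in 40 of 70 and 25 of 49 cells. Apoe, the lipid carrier that macrophages secrete, stood at 2393 and 1599 CPM against 125 and 85.2 CPM. The lysosomal protease cathepsin D (Ctsd) stood at 492 and 467 CPM against 22.7 and 26.8 CPM, and in shallow cells at 1568 and 1422 CPM. The Ace and Fabp4 cells described above came closer for Apoe, with 1140 CPM in WT and 319 CPM in cit. Ctsd stood there at 112 and 49.6 CPM and Slpi at 0 and 3.93 CPM. Clec4n (dectin-2), a lectin receptor for fungal sugars, stood at 158 and 161 CPM against 3.56 and 10.1 CPM. Of 17 genes of lysosomes and cathepsins with 20 or more UMIs, 10 in WT and 8 in cit were at least 2-fold above other cells, beside 5.63% of all genes in each library, with cathepsin B (Ctsb) at 1045 and 1125 CPM against 155 and 149 CPM. Of 8 such genes of efferocytosis (the uptake of dying cells) and scavenging, 5 in WT and 7 in cit were at least 2-fold above, beside the same 5.63%.

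Lyz2, the lysozyme of myeloid cells, was unevenly spread. Its level was 3508 CPM in WT and 3337 CPM in cit (log2 ratio -0.07), but a UMI was found in 33 of 70 WT and 13 of 49 cit C1q macrophages. Single cells held up to 191 and 208 of its 799 and 457 UMIs. After thinning to 1000 UMIs it was found in 53.7% (37.4 to 69.3) of WT and 26.9% (11.6 to 47.8) of cit C1q macrophages, and these intervals overlapped. In shallow cells, with 89 and 23 UMIs, its log2 ratio was -1.46 (-2.19 to -0.78), and in deep cells it was 0.08. With equal weight for each cell it was -1.06. The ratio was -3.48 when at least 4 UMIs of Hmox1, Slc40a1 and Vcam1 were asked for and 0.77 without the cells that held Flt3 or Zbtb46. The level of Lyz2 thus turned on a few cells. In the Ace and Fabp4 cells described above Lyz2 stood at 1728 CPM in WT and 884 CPM in cit.

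Among genes of heme and iron handling that had not chosen the cells, the ferritin genes gave the most UMIs, Fth1 with 6304 CPM in WT and 5236 CPM in cit (1883 and 2465 CPM in other cells) and Ftl1 with 5505 and 4418 CPM (1773 and 1487 CPM). They were found in all 70 and all 49 cells. In shallow C1q macrophages Fth1 stood at 16002 and 10850 CPM and Ftl1 at 15763 and 11224 CPM, against 1699 and 1280 CPM for Fth1 in other shallow cells. The 2 mRNAs together gave a median of 19 UMIs per shallow WT and 17.5 per shallow cit C1q macrophage. The hemoglobin droplets held a median of 12 and 13 ferritin UMIs and the NK-list cells 7 and 8, and red cell precursors hold ferritin mRNA of their own. The part of free RNA in the ferritin UMIs of shallow C1q macrophages was not tested.

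The enzyme that follows heme oxygenase, biliverdin reductase B (Blvrb), stood at 224 and 226 CPM against 14.2 and 21.3 CPM in other cells. Slc48a1, which carries heme out of the phagolysosome, stood at 110 and 124 CPM against 16.9 and 22.8 CPM. Slc11a1 (NRAMP1), a metal transporter of the phagosome, stood at 61.5 and 94.9 CPM against 16.1 and 10.0 CPM. These 3 genes were above other cells in both libraries. The cargo receptor for ferritin turnover, Ncoa4, stood at 114 and 65.7 CPM against 36.7 and 27.1 CPM. Flvcr1, a heme exporter, was lower in C1q macrophages, with 70.2 and 65.7 CPM against 151 and 103 CPM. Of the 13 genes of this list with 20 or more UMIs, 8 in WT and 7 in cit were at least 2-fold above other cells, beside 5.63% of all genes in each library.

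Hemoglobin mRNA, in contrast, was not a general feature. Hba-a1 (chr11:32283511-32284465) and Hba-a2 (chr11:32296489-32297298) encode α globin, and Hbb-bs (chr7:103826534-103828096) and Hbb-bt (chr7:103812524-103813996) encode β globin. The coding sequences of the α genes were identical at 425 of 426 positions and those of the β genes at 440 of 441. The whole annotated transcripts, whose 3′ ends the kit captures, were 75.1% and 83.0% identical. How reads were split within each pair was not checked, so the sum is used. WT C1q macrophages held 6407 hemoglobin UMIs and cit ones 87. The median was 0 UMIs per cell in both, and a hemoglobin UMI was found in 5 of 70 WT (7.14%, interval 2.36 to 15.9) and 6 of 49 cit cells (12.2%, interval 4.63 to 24.8), beside 1.95% and 1.93% of other cells. After thinning to 1000 UMIs it was found in 2 of 41 WT and 1 of 26 cit C1q macrophages (4.88% and 3.85%), and in 0.603% and 0.487% of other cells.

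A single WT cell held 6353 of the 6407 UMIs (99.2%). It had 11756 UMIs in all, of which 54.0% were hemoglobin, and 1596 genes. It also held 3 C1q UMIs, 8 UMIs of Hmox1, Slc40a1 and Vcam1, 11 UMIs of the red pulp list and 3 UMIs of the DC list, so it lay at the C1q limit of the rule. The next WT cell held 51 hemoglobin UMIs of 4666, and the remaining 3 held 1 each. In cit the highest cells held 54 of 715, 22 of 638 and 6 of 1147 UMIs. As a level, hemoglobin stood at 28126 CPM in WT and 635 CPM (509 to 784) in cit. Without the highest cell of each library it stood at 250 CPM (188 to 326) in WT and 242 CPM (167 to 340) in cit. The difference between the libraries thus turned on single cells. Other cells stood at 260 CPM in WT and 169 CPM in cit, and there too 80.9% and 94.3% of the UMIs were in 2 and 3 cells with at least 1000 hemoglobin UMIs each.

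**Figure D4:**
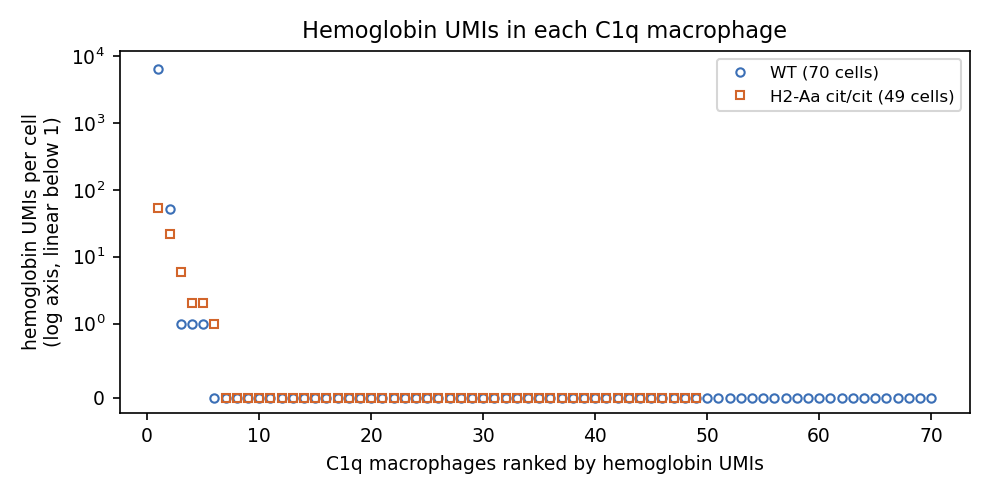
Hemoglobin UMIs (Hba-a1, Hba-a2, Hbb-bs and Hbb-bt, log axis, linear below 1) in each C1q macrophage, ranked from high to low within its library, circles for 70 WT and squares for 49 cit cells. A single WT cell holds 6353 UMIs, the next WT cell holds 51 and the highest cit cell 54, and all but 5 WT and 6 cit cells are at 0.

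In shallow C1q macrophages, where the macrophage genes were densest, hemoglobin gave 1 UMI in WT and 85 UMIs in 5 of 32 cells in cit. Genes of red cell precursors lay in the WT cell with the most hemoglobin. It held all 15 UMIs of Alas2, the first enzyme of erythroid heme synthesis and 22 of the 23 of Bpgm, a red cell glycolytic enzyme, that WT C1q macrophages gave. Among cit C1q macrophages Alas2 had no UMI and Bpgm 2, and the cell with the most hemoglobin held none of these. Whether hemoglobin mRNA in these cells was engulfed, came from an adhering red cell precursor or from free RNA was not tested.

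H2-Aa (chr17:34282744-34287823) was read first in the comparison of cit with WT C1q macrophages, as it checks the labels. It gave 1296 UMIs (5689 CPM) in WT and 15 UMIs (110 CPM) in cit, a log2 ratio of -5.70 (-6.54 to -4.97), and -6.35 in other cells. A UMI was found in 65 of 70 WT and 11 of 49 cit C1q macrophages. The transcript was thus nearly absent in the library labelled cit. Its partner H2-Ab1 stood at 4188 and 6485 CPM (log2 0.63, 0.50 to 0.76; other cells 0.53), and the MHC-II transactivator Ciita at 299 and 613 CPM (1.04, 0.56 to 1.52; other cells 0.15). These sums come mostly from the deep cells, as for 1161 of the 1296 UMIs of H2-Aa in WT. In shallow cells H2-Ab1 had a log2 ratio of 0.26 (-0.19 to 0.71) and Ciita, with 6 and 3 UMIs, of -0.51.

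Across the 3394 genes with at least 20 UMIs over both libraries, 226 (6.66%) were at least 2-fold higher and 290 (8.54%) at least 2-fold lower in cit than in WT C1q macrophages, with a median log2 ratio of 0.04. These percentages are the background for the lists below. At this number of cells many such ratios rest on a few UMIs.

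Over all cells the red pulp macrophage genes had similar summed levels in both libraries. The log2 ratio of their sum, cit to WT, was -0.04 (-0.24 to 0.16), the median over the 12 genes was -0.05, none was 2-fold higher and Mertk alone was 2-fold lower. The summed ratio was 0.11 (-0.16 to 0.38) in shallow cells and -0.42 (-0.72 to -0.13) in deep cells. Spic had a log2 ratio of -0.15 (-0.89 to 0.55), Axl 0.28 (-0.39 to 0.94), Mrc1 0.48 (-0.26 to 1.21), Fcna -0.27 (-1.10 to 0.52) and Csf1r -0.25 (-0.75 to 0.23). These intervals include 0 and run past a 2-fold change for Mrc1 and Fcna, so a change of that size was not excluded for these genes. Mertk, a receptor for engulfment of dying cells, gave 50 UMIs in 14 WT cells and 12 UMIs in 5 cit cells (219 and 87.6 CPM, log2 ratio -1.32, -2.37 to -0.40). In shallow cells its ratio was -0.09 and in deep cells -1.99, and in other cells, where it is near 0, -2.27.

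The ferritin mRNAs were slightly lower per UMI in cit C1q macrophages. The summed list had a log2 ratio of -0.28 (-0.37 to -0.19) and of 0.09 in other cells, and Fth1 and Ftl1 gave 1436 and 1254 of its 3042 UMIs in WT. Fth1 had a log2 ratio of -0.27 (-0.40 to -0.14) and Ftl1 of -0.32 (-0.46 to -0.18), and in shallow cells -0.56 and -0.49, where the median per cell differed little (19 and 17.5 UMIs). In other cells the 2 genes went opposite ways, with Fth1 at 0.39 (0.38 to 0.40) and Ftl1 at -0.25 (-0.27 to -0.24). Of 13 genes with 20 UMIs, none was 2-fold higher and Gclm, a subunit of the enzyme that starts glutathione synthesis, was 2-fold lower (23 and 4 UMIs, log2 ratio -1.79, -3.78 to -0.24), beside 8.54% of all genes compared. Blvrb had a log2 ratio of 0.02 (-0.68 to 0.69) and Slc48a1 of 0.18 (-0.80 to 1.12). Slc40a1 stood at 386 and 555 CPM and Hmox1 at 1256 and 1000 CPM, given as a description since both chose the cells, and the log2 ratio of Hmox1 turned from -0.33 to 0.042 when at least 4 UMIs of Hmox1, Slc40a1 and Vcam1 were asked for.

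Genes of protein folding in the endoplasmic reticulum (ER) were higher in cit as a group. Of 10 such genes with 20 UMIs, 9 were at least 2-fold higher in cit C1q macrophages and none was lower, with a median log2 ratio of 1.88 (0.04 over all genes). In other cells 9 of the same 10 were at least 2-fold higher in cit and none was lower, beside 1.12% and 2.74% of the 3394 genes there, and the median was 2.11 (0.0012 over all genes). Whether C1q macrophages and other cells differed in this was not tested. The authors named Hsp90b1, Sdf2l1, Dnajc3 and Pdia6 among genes raised in conventional DC of cit mice in these same libraries. The gene lists were chosen with earlier results known, so these counts are a description. Hspa5 (BiP), the main ER chaperone, stood at 272 CPM in WT and 1154 CPM in cit (2.08, 1.65 to 2.53). Hsp90b1, another ER chaperone, stood at 285 and 1022 CPM (1.84, 1.41 to 2.29), and Sdf2l1, a partner of BiP, at 57.1 and 497 CPM (3.12, 2.25 to 4.10). In other cells these 3 genes had log2 ratios of 2.20, 1.88 and 2.27. Manf, a secreted ER stress protein, stood at 123 and 467 CPM (1.93, 1.27 to 2.62), with a log2 ratio of -1.09 in shallow and 2.69 in deep cells. Sec61b, a subunit of the channel into the ER and the gene of the list below 2-fold, stood at 277 and 475 CPM (0.78, 0.26 to 1.30). A single cit cell held 160 of the 652 UMIs of the list. With equal weight for each cell the median was 0.998, and without the cells that held Flt3 or Zbtb46 it was 1.09.

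This difference was smaller in shallow C1q macrophages. The summed ER list had a log2 ratio of 2.05 (1.83 to 2.27) in deep cells and of 0.84 (0.37 to 1.31) in shallow cells. The shallow cells held a median of 1 UMI of the list in WT and 2.5 UMIs in cit, with 70 and 89 UMIs in all, and the hemoglobin droplets a median of 0 and 1 UMI, or 0 and 935 CPM without hemoglobin against 1861 and 3340 CPM in the shallow cells. The part of free RNA and of the DC transcripts in deep cells was not tested.

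**Figure D5:**
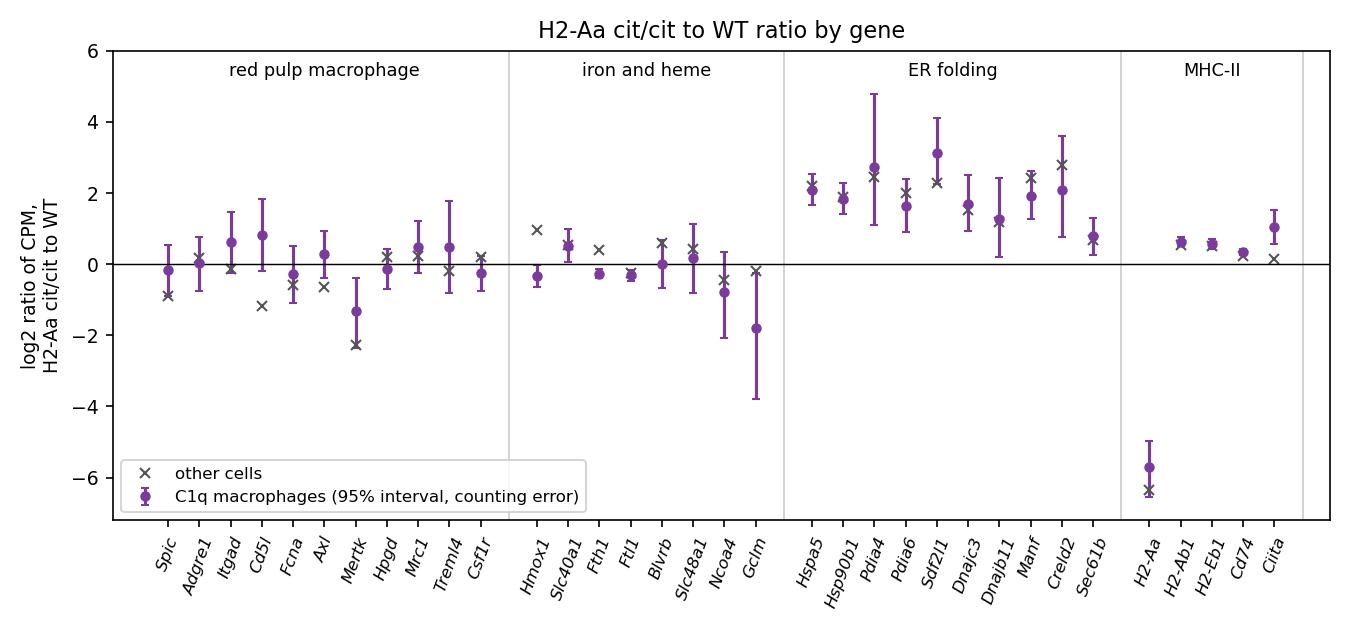
Log2 ratio of CPM, cit to WT, by gene in C1q macrophages (circles, bars are 95% intervals from counting error) and in other cells (crosses), for the ER folding list and for red pulp macrophage and some iron, heme and MHC-II genes, all with 20 or more UMIs. Mertk is the lowest red pulp gene at -1.32, the ER folding genes run from 0.78 to 3.12, and H2-Aa is at -5.70.

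MHC-I genes had a median log2 ratio of 0.41, with 3 of 12 genes 2-fold higher, namely Tap1 (1.42, 0.52 to 2.36), a subunit of the peptide pump of the ER, and the chaperones Calr (1.19) and Pdia3 (1.26). The heavy chains H2-K1 (0.60, 0.34 to 0.85) and H2-D1 (0.32, 0.05 to 0.58) had smaller ratios, as did calnexin (Canx) with 0.51 (-0.13 to 1.14). With equal weight for each cell Calr had 0.47 and Pdia3 0.45, and in shallow cells they had 0.17 and 0.25, all below 2-fold. Without the cells that held Flt3 or Zbtb46, Pdia3 had 0.30, below 2-fold, while Calr had 1.07, still above it. In other cells 2 of the 12 MHC-I genes were 2-fold higher in cit, beside 1.12% of all genes there. The median of the list there was 0.11, with Calr at 1.26 and Canx at 0.75. In C1q macrophages, lysosome and cathepsin genes had a summed log2 ratio of -0.09 (-0.20 to 0.02) over 18 genes. Of the 8 efferocytosis and scavenger genes with 20 UMIs, Lrp1, a receptor for many ligands, was 2-fold higher (9 and 13 UMIs, 1.26, -0.07 to 2.67) and Mertk 2-fold lower. Apoe had a log2 ratio of -0.58 (-0.81 to -0.35), but 0.02 (-0.43 to 0.46) in shallow and -0.83 (-1.11 to -0.55) in deep cells. Single cells held up to 100 of its 545 UMIs in WT and 74 of 219 in cit.

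Several of the most extreme ratios rested on single cells. Among the 10 highest, Ccl17, a chemokine of mature DC, gave 31 UMIs in a single cit cell and none in WT (17.2-fold higher when set against 3 UMIs). Cox6a2, a subunit of cytochrome c oxidase, gave 39 UMIs in 3 cells (21.6-fold by the same measure). March3, a ubiquitin ligase, gave 20 UMIs, of which 17 were in a single cell (11.1-fold). These folds take the cit UMIs as counted, and with their counting error the lower 95% limits of the log2 ratios were 3.72 for Ccl17, 4.07 for Cox6a2 and 3.04 for March3. Ccl6 gave 9 and 44 UMIs, of which 38 were in a single cell. Sdf2l1 was spread more widely, over 12 WT and 17 cit cells, as was Pdia4, an ER disulfide isomerase (log2 2.73, 4 and 9 cells). The other genes of this group were Nupr1 (3.90, interval 1.84 to 7.06), Gm35154 (3.40), Ptger3 (3.19) and Clec4b1 (2.73). In other cells Cox6a2 had a log2 ratio of 3.02, Nupr1 of 2.31 and Ptger3 of 1.21, while March3 had -0.60.

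Among the 10 lowest were H2-Aa and all 4 hemoglobin genes, with log2 ratios from -5.89 to -5.18, and the WT cell described above held 99.2% of the WT hemoglobin UMIs. Igf1r, the receptor for IGF1, gave 31 UMIs in 7 WT cells and none in cit (6.21-fold lower when 3 UMIs are taken for cit). Ly75, the DC receptor DEC-205, gave 39 UMIs in 9 WT cells and none in cit (7.82-fold lower by the same measure). With the counting error of the WT UMIs the 95% limits nearest 0 were -2.25 for Igf1r and -2.60 for Ly75 on the log2 scale. Ccr7, the receptor that guides mature DC, gave 37 and 1 UMIs. Colq gave 62 and 1 UMIs, with a log2 ratio of -5.22 (-10.55 to -2.69). Gclc, the catalytic partner of Gclm, gave 112 and 3 UMIs, of which 97 were in a single WT cell. In WT these genes lay mainly in deep cells, as for Ly75 with 38 of 39 UMIs. In other cells Colq had a log2 ratio of -3.24, Gclc of -2.92, Ly75 of -1.78, Ccr7 of -1.53 and Igf1r of -0.08.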

How the data were processed

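The authors deposited raw UMI counts for each gene in each cell, not normalized. The submitters' processing notes name Cell Ranger 5.0.1, Seurat and the mm10 build. The annotation release and the counting of intronic reads were not given in the sources used here. The WT library held 7814 cells and 51020804 UMIs, that of cit mice 11525 cells with 72652201 UMIs, and both list 32285 genes. No cell had fewer than 200 genes, all cells were kept, and doublets were not removed.

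Python 3.11.15, numpy 2.4.6, scipy 1.17.1 and pandas 2.3.3 were used, with matplotlib 3.10.9, Scrublet in scanpy 1.11.5 (marking the 488 WT and 1063 cit cells of the highest scores) and biopython 1.88. UMIs were summed over the cells of a set and scaled to its total. Intervals were Clopper-Pearson for shares, Newcombe for their difference, Poisson for levels and conditional binomial for ratios, at 95%. The ratio and interval code was tested on simulated data. Folds against 0 UMIs are set against 3 UMIs, taken over the set, and leave out the counting error of the other library.

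The cells and the gene lists were chosen with earlier results of these data known. Besides list genes, the text names the 15 genes with the highest ratio of C1q macrophages to other cells (5 CPM added, at least 100 CPM in both libraries, without the 7 genes of the rule) and the 10 highest and 10 lowest ratios of cit to WT (at least 100 CPM in either library and 20 UMIs over both). Gene positions are from GENCODE M21, which held 32158 of the 32285 gene identifiers. Of the genes in the lists, 1 was not among the genes counted. Single genes of the lists and of the 15 are not reported here.

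Alternatives were median-ratio scaling, equal weight for each cell, totals without hemoglobin and mitochondrial UMIs, other UMI minimums for genes, other limits of the rule, thinning before the rule, and leaving out cells with the highest Scrublet scores, cells over 10% mitochondrial UMIs or cells with Flt3 or Zbtb46. Splits by depth, and leaving out the WT cell with most hemoglobin or shared barcodes, were chosen after seeing the data.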

Additional observations from a re-analysis of the deposited data

How the results depend on the processing

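No paired analysis was possible because there was 1 library per genotype and no test was made. Shares depended on the limits of the rule. With at least 5 C1q UMIs they were 0.512% in WT and 0.295% in cit (difference -0.217 points), with at least 4 UMIs of Hmox1, Slc40a1 and Vcam1 0.640% and 0.286%, and with cells thinned to 1000 UMIs before the rule 0.191% and 0.0719% (14 and 8 cells, difference -0.119). WT had the higher share under each of these.

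Counts of genes 2-fold higher and lower in cit C1q macrophages (226 and 290) became 443 and 457 with equal weight for each cell, 1384 and 1124 of 9086 genes with 1 UMI in each library, 15 and 24 of 487 genes with 100 UMIs, 71 and 113 of 1146 genes without cells holding Flt3 or Zbtb46, and 14 and 22 of 423 genes in cells under 2000 UMIs. With at least 5 C1q UMIs, 170 genes were lower. The ER folding median was 0.998 with equal weight, 1.09 without cells holding Flt3 or Zbtb46 and 0.74 in cells under 2000 UMIs. The red pulp median was -0.33 in deep cells. Hemoglobin was 0 CPM in both libraries as a median over cells and 0 and 7.82 CPM without the 5 highest cells of each. Without the highest cell of each library it was 250 CPM in WT and 242 CPM in cit. The ratio of Hmox1 turned to 0.042 with at least 4 UMIs of Hmox1, Slc40a1 and Vcam1, and that of Apoe to 0.022 in cells under 2000 UMIs. The cause of these changes was not tested, beyond the fewer cells and genes each setting leaves. Median-ratio scaling shifted log2 ratios by 0.09. The other 81 values for shares, median depth, counts, list medians and H2-Aa moved less than their limits.

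With 119 cells, most of them shallow, a gene of few UMIs cannot be read cell by cell, and the deep cells hold 83.5% of the WT and 80.5% of the cit UMIs of the population, so summed levels mostly describe 27 and 17 cells.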

Other observations

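Other myeloid genes of the C1q macrophages were described by level alone. Fcer1g, the signalling chain of activating Fc receptors, stood at 1084 CPM in WT and 1636 CPM in cit C1q macrophages (log2 ratio 0.59, 0.33 to 0.86), beside 615 and 803 CPM in other cells (0.38). Fcgr3, a receptor for IgG, gave 16 and 12 UMIs (70.2 and 87.6 CPM against 3.31 and 5.42 CPM in other cells). The other Fc receptor genes, Fcgr1, Fcgr2b and Fcgr4, gave 0, 5 and 6 UMIs in WT and 9, 5 and 10 in cit. Fcgr2b stood at 21.9 and 36.5 CPM, level with the 21.8 and 36.7 CPM of other cells. Maf, a transcription factor of resident macrophages, stood at 119 and 117 CPM against 1.93 and 1.70 CPM. Selenop, a secreted selenium carrier, stood at 277 and 234 CPM against 13.3 and 15.3 CPM.

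Interferon-stimulated genes had a summed log2 ratio of cit to WT of 0.40 (0.16 to 0.64) in C1q macrophages and 0.51 in other cells, and none of the 4 genes with 20 UMIs was 2-fold changed. Ly6e was the most abundant of them (163 and 127 UMIs). Immediate-early genes had a summed ratio of 0.01 (-0.25 to 0.27) and were lower in shallow than in deep cells, with 877 against 1520 CPM in WT and 599 against 1624 CPM in cit. The 6 cell cycle genes stood at 87.8 and 102 CPM in C1q macrophages, below the 307 and 364 CPM of other cells.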
